A study of Mus musculus with 2 samples.

Results

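The genes described here encode the hormones oxytocin and vasopressin, their brain receptors, and the receptors for prolactin, estrogen and progesterone, together with Cd38. The members are Oxt, Avp, Oxtr, Avpr1a, Avpr1b, Prlr, Esr1, Esr2, Pgr and Cd38, taken as every probe that is not a control and carries one of these gene names in the scanner output of both arrays. This gave 10 of the 27670 genes named on the arrays, with 16 of the 41174 probes. Whole brain of C57BL/6J females aged 8 weeks and taken on postpartum day 0 was hybridized to 2 two-colour Agilent arrays on 1 slide. On the first array, brain of TDAG51 KO dams (Cy3), which lack the gene Phlda1 that encodes TDAG51, was compared with brain of TDAG51 WT dams (Cy5). On the second array, TDAG51 KO brain (Cy3) was compared with brain of TDAG51 KO Tg dams (Cy5), which carry the same knockout and a transgene for murine TDAG51. The transgene is driven by the brain-specific BAI1-AP4 promoter, which is active mainly in the cerebral cortex and hippocampus, and the KO Tg sample comes from a single transgenic line. Each comparison rests on 1 array without a dye swap, and the number of dams in a sample is not given in the sources used here, so that no gene could be tested across animals.

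Oxytocin and vasopressin are short peptides made mainly by large neurons of the hypothalamus, which release them from the posterior pituitary into the blood and from nerve fibres within the brain. Their receptors are membrane proteins coupled to the G protein Gq, and oxytocin is known for its part in birth, milk ejection and maternal care. Prolactin from the anterior pituitary acts through a cytokine-type receptor, and estrogen and progesterone act through nuclear receptors that are transcription factors. In the hypothalamus and limbic forebrain these hormones prepare the brain for the care of offspring.

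The probes are 60 bases long, and the letters of 4 of them are given. Oxt and Avp are shown because the 2 precursors are related and their probes share bases. Oxtr and Prlr are shown because the probes of each of these genes gave different values. They are written 5′ to 3′ as the scanner output lists them, in lower case, and the capitals mark the longest run that the Oxt and Avp probes share. The positions that follow are those of the array design on the mouse assembly mm7.

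Oxt (A_52_P597264): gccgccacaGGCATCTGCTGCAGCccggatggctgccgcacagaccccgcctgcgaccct

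Avp (A_51_P136508): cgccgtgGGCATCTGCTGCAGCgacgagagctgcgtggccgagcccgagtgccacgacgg

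Oxtr (A_52_P430422): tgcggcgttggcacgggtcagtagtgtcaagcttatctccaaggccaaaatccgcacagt

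Prlr (A_52_P458279): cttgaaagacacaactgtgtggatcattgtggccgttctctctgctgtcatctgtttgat

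The Oxt probe (NM_011025) lies at chr2:130317618-130317761 on the plus strand and the Avp probe (NM_009732) at chr2:130321669-130321934 on the minus strand, with 3907 bases between them. Each spans more genome than its own length (144 and 266 bases), so that its letters come from both sides of a gap in the genome. Both are rich in G and C (73.3% each) and have no stop codon in any of the 3 frames. Their shared run is 15 bases long, whereas the longest run shared by any other pair among the 113 pairs of probes from different member genes was 8 bases. No member probe shared a run of 20 bases with a probe of another gene name. The Oxtr probe shown (D86599, chr6:112649929-112649988, minus strand) has 2 frames without a stop codon, and the other Oxtr probe (A_51_P328870, chr6:112637108-112637169) has none and lies 12759 bases away. The Prlr probe shown (NM_011169, chr15:10387524-10387583, plus strand) also has 2 open frames, and the brightest Prlr probe (A_51_P264673, chr15:10398442-10398501) has none.

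The probe of the targeted gene Phlda1 (NM_009344, chr10:110970234-110970293) read 350 in TDAG51 KO and 7283 in TDAG51 WT, and was 17.3-fold lower in KO. On the second array it read 44.1 in KO and 50.5 in KO Tg, neither well above background, so that the transgene was not seen by this probe. The sources used here do not say whether the probe lies in the deleted part or in the transgene. The 2 KO channels thus differed for this gene, and they also differed for the hemoglobin gene Hba-a1 (2259 and then 35470). Whether both arrays received the same KO extract is not given in the sources used here. Marker genes of brain tissue were present in all samples, with all 5 neuron, 5 astrocyte and 5 oligodendrocyte markers well above background in each. The region markers were shifted in KO. Of the cerebellum markers, 8 of 10 were at least 2-fold higher in KO in each comparison. Of the striatum markers 7 of 9, and of the cortex and hippocampus markers 4 of 9 against WT and 5 of 9 against KO Tg, were at least 2-fold lower. Of the other lists, those at least 2-fold lower in KO were 0 neuron markers against WT and 1 against KO Tg, 1 and 2 of 6 microglia and macrophage markers, and 0 and 0 oligodendrocyte markers, while 0 and 1 astrocyte markers were higher. Both measured blood markers were lower in KO than in WT and higher in KO than in KO Tg, and 0 uterus and placenta markers were 2-fold apart in either comparison.

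**Figure D1:**
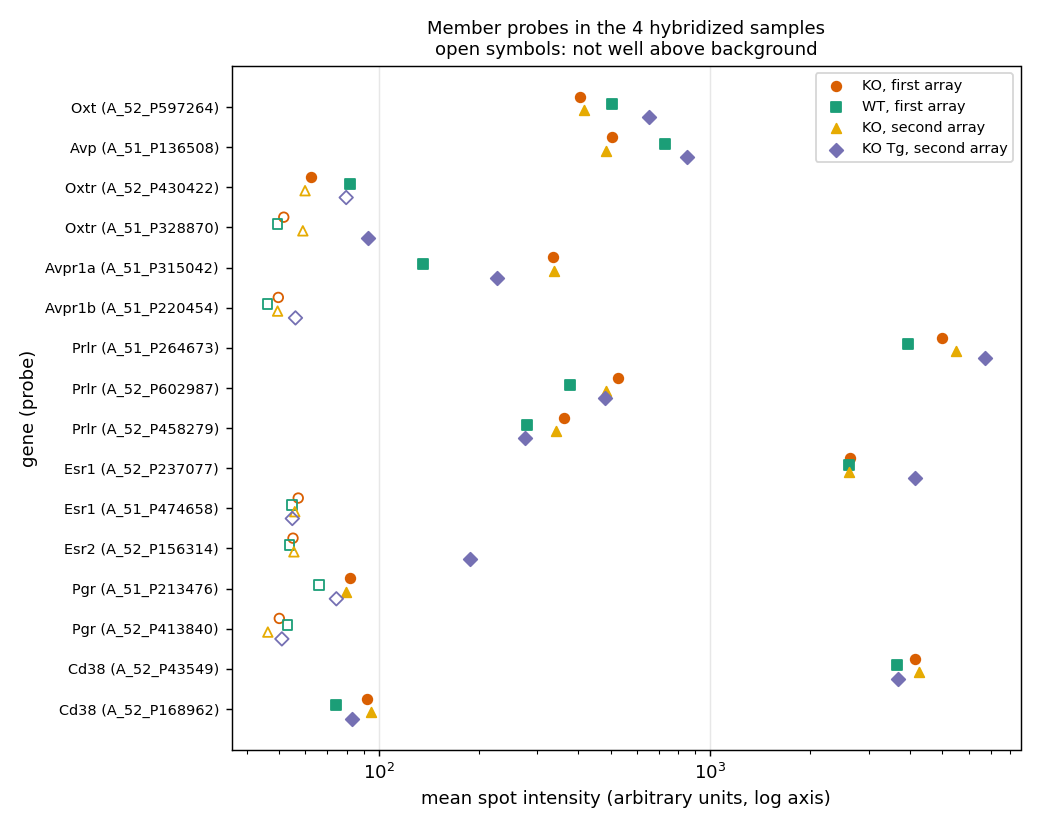
Mean spot intensity (arbitrary units, log axis) of the 16 member probes in the 4 hybridized samples, with the sample given by colour and shape and open symbols for readings not well above background. Avpr1a is lowest in WT (136) and Esr2 stands above background only in KO Tg (188). Levels of different probes cannot be compared.

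By the mark of the scanner software, 13 of the 16 probes stood well above background in 1 or more of the 4 channels and 9 in all 4. Each gene was read through its brightest probe over both arrays. Intensities are given as read, with KO in Cy3 and the controls in Cy5, and dyes were balanced only in the ratios. By these probes, 8 of the 10 genes could be measured in each comparison. These include Pgr, measured through KO alone, and against KO Tg Esr2, measured through KO Tg alone. Avpr1b was near background throughout, Esr2 was near background on the first array, and the brighter Oxtr probe was near background on the second. Against WT, 1 of the 8 genes was at least 2-fold higher in KO (Avpr1a) and 0 were at least 2-fold lower, where the shares of all 23157 genes past 2-fold were 4.87% higher and 4.66% lower. Against KO Tg, 0 of the 8 were at least 2-fold higher and 1 was at least 2-fold lower (Esr2), where 4.71% of 22673 genes were higher and 3.97% lower. A count of 1 among 8 is not read as a result about the members as a set. The median log2 ratio of the member genes was 0.27 against WT and -0.14 against KO Tg, beside 0.00 and 0.01 over all genes, whose quartiles were -0.33 and 0.34 against WT and -0.32 and 0.34 against KO Tg. All folds are KO against the control after background correction and dye normalization, which raised the KO side. Without it, probes above background had a median log2 ratio of -0.19 against WT and -0.25 against KO Tg.

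The 2 peptide genes were lower in KO than in both controls, by less than 2-fold. Oxt, the precursor of oxytocin and its carrier neurophysin, read 405 in KO and 504 in WT, and 417 in KO and 653 in KO Tg. The 2 KO readings lay next to each other, and both controls lay above them. Oxt was 1.14-fold lower in KO than in WT (log2 ratio -0.18) and 1.32-fold lower than in KO Tg (-0.41). The software's own log2 ratios, to which its spot error belongs, were -0.26 (error 0.21) and -0.50 (error 0.21).

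Avp, the precursor of vasopressin, read 506 in KO and 727 in WT, and 485 in KO and 852 in KO Tg. Its samples fell in the same order as those of Oxt, with KO lowest and KO Tg highest. Avp was 1.29-fold lower in KO than in WT (log2 ratio -0.37) and 1.48-fold lower than in KO Tg (-0.56). By the software's own log2 ratios it was -0.44 and -0.66, each with a spot error of 0.21. Each of the 2 genes has 1 probe with 1 spot on an array. Against the lower quartile of all genes in the comparison with WT, -0.33, Oxt (-0.18) lay inside and Avp just outside. In the comparison with KO Tg, both lay outside the lower quartile of -0.32.

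Oxt and Avp are transcribed in few hypothalamic neurons, and in whole brain fewer such cells and less RNA per cell cannot be told apart. Of the hypothalamus markers, 4 of 11 measured genes were at least 2-fold lower in KO than in WT and 2 of 10 were so against KO Tg, and none was 2-fold higher. Their median log2 ratios were -0.33 and -0.59, and some were higher in KO, such as Cartpt with 0.57 against WT and 0.37 against KO Tg. Their summed intensity was 19094 in KO and 35902 in WT on the first array, and 19673 in KO and 38154 in KO Tg on the second. These sums add readings before the dyes were balanced and weigh the brightest probes most, so they do not give a fold. All 11 were well above background in KO and WT on the first array, and 10 of 11 were so in both samples on the second. Their part in the Oxt and Avp values was not tested.

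The receptors of the 2 peptides gave different pictures. Avpr1a, the vasopressin receptor most widely found in brain, was higher in KO than in both controls, and Oxtr was read so close to background that its fold depends on the probe and the correction. Avpr1a (NM_016847, chr10:121946316-121946375) read 334 in KO and 136 in WT, and 338 in KO and 227 in KO Tg. The KO readings were alike, WT was the lowest of the 4, and KO Tg lay between. Avpr1a was 2.44-fold higher in KO than in WT (log2 ratio 1.29) and 1.64-fold higher than in KO Tg (0.72). By the software's own log2 ratios it was 1.79 (spot error 0.27) and 0.93 (spot error 0.23). Avpr1a is on the same chromosome as Phlda1, with 10.98 megabases between the probes.

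The brighter Oxtr probe read 62.6 in KO and 81.7 in WT on the first array, both marked as well above background, and 59.9 in KO and 79.7 in KO Tg on the second, neither so marked. The local backgrounds in the same order were 44.0, 41.0, 39.0 and 38.5. The readings in KO were thus the lower ones, all 4 within a narrow range above background. This probe was 1.25-fold lower in KO than in WT (log2 ratio -0.32). By the ratio of the scanner software, to which no offset of 50 was added, the log2 ratio was -1.26 (spot error 0.38) and past 2-fold. Against KO Tg no fold is given for this probe.

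The other Oxtr probe read 51.7 in KO and 49.6 in WT, both near background, and 59.0 in KO and 93.1 in KO Tg. Only the KO Tg reading was well above background, and KO was at least 1.44-fold lower than KO Tg. The 2 probes of the oxytocin receptor therefore did not give one order of the samples. Between KO Tg and WT the probe shown above differed by -0.09 on the log2 scale and the other by 0.61. Avpr1b (NM_011924, chr1:131504442-131513240), the vasopressin receptor of the anterior pituitary and of hippocampal area CA2, read between 46.2 and 56.1 in the 4 samples, near background in each.

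**Figure D2:**
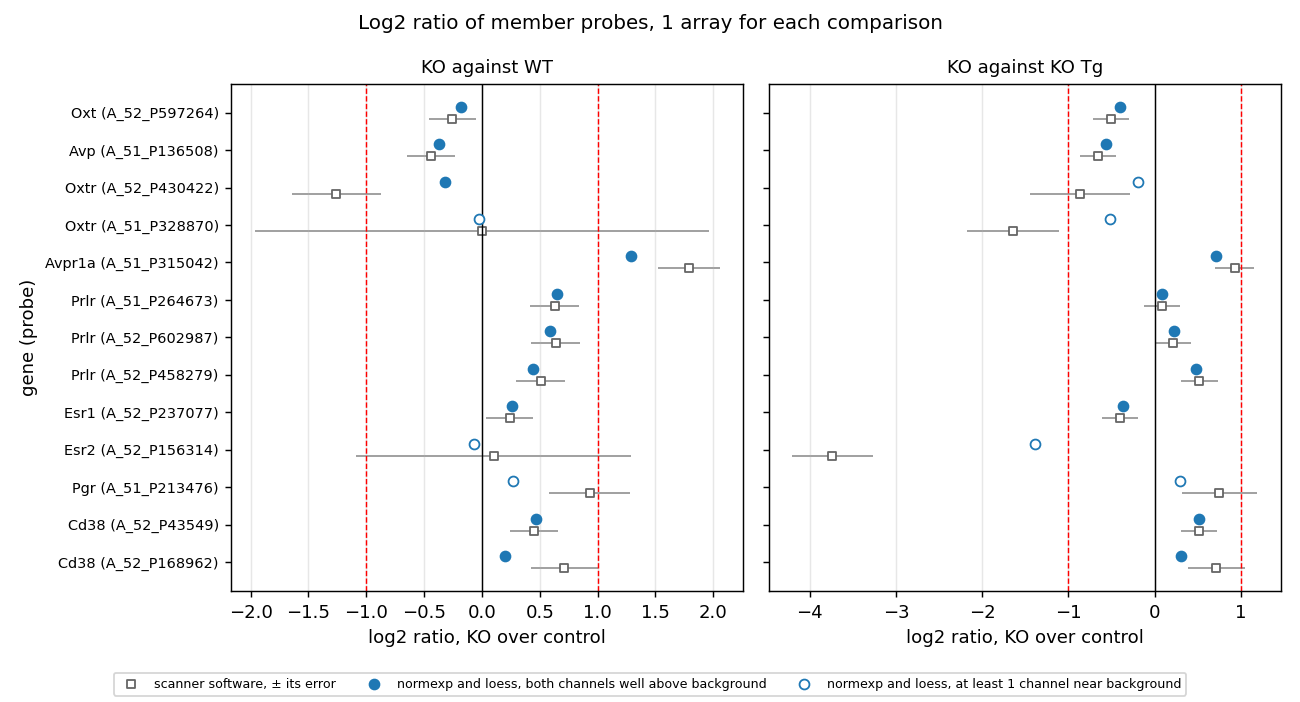
Log2 ratio of KO over the control for the 13 member probes that stood above background in some channel, against WT (left) and KO Tg (right). Circles are the ratios used here, open where a channel was near background, squares are the ratios of the scanner software with its spot error as bars, and dashed lines mark 2-fold. Avpr1a lies past 2-fold against WT (1.29) and Esr2 against KO Tg (-1.39), and the 2 kinds of ratio part most for the dim probes.

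Prlr, the prolactin receptor, was higher in KO than in WT with each of its 3 probes. Against KO Tg the log2 ratios of the 3 probes were also positive, and ran from 0.09 to 0.48. The brightest probe (AK083198) read 4987 in KO and 3928 in WT, and 5482 in KO and 6711 in KO Tg. As read, with the dyes not balanced, it was highest in KO Tg and lowest in WT. After dye normalization KO no longer lay below KO Tg. The log2 ratio was 0.65 against WT (spot error 0.21) and 0.09 against KO Tg (spot error 0.20), a 1.57-fold and a 1.06-fold difference. The software's own ratio against KO Tg was also 0.09, within that error.

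The probe of Prlr annotated to BC096586 (A_52_P602987, chr15:10394904-10394963) read 525 in KO and 378 in WT, and 483 in KO and 481 in KO Tg. The Prlr probe whose sequence is shown read 362 in KO and 280 in WT, and 342 in KO and 276 in KO Tg. The log2 ratios of these 2 probes were 0.59 and 0.44 against WT and 0.23 and 0.48 against KO Tg, each with a spot error of 0.21. KO Tg minus WT was 0.71, 0.25 and -0.09 on the log2 scale for the brightest, the BC096586 and the NM_011169 probe. The difference between the 2 controls was thus largest at the probe with the highest coordinate and smallest at the one with the lowest, and the strand of all 3 is plus. Each probe has 1 spot on an array, so that a difference between probes cannot be told apart from spot error. Whether they read different transcripts of the gene was not tested.

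By their brightest probes, both estrogen receptor genes had their highest intensity in KO Tg. Esr1, which encodes estrogen receptor alpha, has a bright probe with 10 spots on each array (NM_007956, chr10:5343241-5343300, minus strand). On the first array its spots ran from 2294 to 2845 in KO (median 2727) and from 2264 to 2897 in WT (median 2651), so the readings overlapped. On the second array they ran from 2390 to 2919 in KO (median 2624) and from 3655 to 4700 in KO Tg (median 4169), with no overlap. After dye normalization the log2 ratio was 0.26 ± 0.04 (SD, n = 10 spots) against WT and -0.37 ± 0.03 (SD, n = 10 spots) against KO Tg, a 1.20-fold higher and a 1.29-fold lower level in KO. Spots of one array share the sample, so this SD is technical. Without normalization the log2 ratio against WT was 0.01, so the direction of Esr1 against WT rests on the dye correction. Against KO Tg it was -0.66 without normalization, so part of the gap between the spot readings of the 2 dyes goes with that correction. The normalized value of -0.37 lay just outside the lower quartile of all genes against KO Tg, -0.32. The other Esr1 probe (A_51_P474658) read between 54.7 and 57.2 in all 4 samples, near background, and gives no fold.

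Esr2, which encodes estrogen receptor beta, was above background in KO Tg alone. Its probe (NM_207707, chr12:74079895-74079954, minus strand) also has 10 spots, of which 1 was left out on the first array as an outlier. The spots ran from 47.8 to 62.9 in KO (median 56.9) and from 45.0 to 65.9 in WT (median 53.0) on the first array, and from 51.1 to 60.5 in KO (median 55.7) on the second. In KO Tg they ran from 154 to 213 (median 190), and every one of the 10 was well above background, as was 1 of the 9 KO spots on the first array. The KO Tg spots did not overlap with those of any other sample, and the other 3 samples overlapped with each other. Esr2 was at least 2.61-fold lower in KO than in KO Tg, and no fold is given against WT. Since the gene passed the filter on dim probes only through KO Tg, it could be measured there only by being different. The Esr2 and the brightest Esr1 probe have a stop codon in each of the 3 frames.

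**Figure D3:**
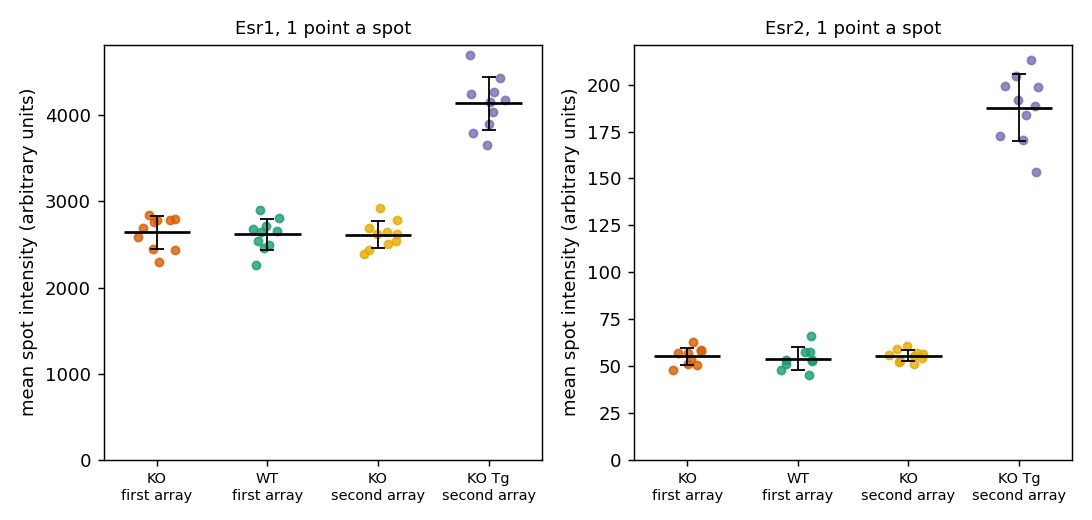
Mean intensity (arbitrary units) of every spot of the Esr1 and Esr2 probes in the 4 samples, with a line at the mean and bars of 1 SD over 10 spots (9 for Esr2 on the first array). The KO Tg spots lie above those of the other samples for both genes, and the spots of 1 array are technical repeats.

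Pgr, the progesterone receptor, was marked as well above background in KO only. Its brighter probe (A_51_P213476, NM_008829, chr9:8987004-8987063) read 81.8 in KO and 66.1 in WT, and 79.5 in KO and 74.5 in KO Tg, and was well above background in KO alone on each array. KO was at least 1.21-fold higher than WT and at least 1.15-fold higher than KO Tg. Since Pgr passed the filter on dim probes only through KO, this direction was set by the filter. The lowest spot readings marked as well above background on the first and second array were 59.0 and 60.85 in Cy3, and 63.7 and 80.5 in Cy5. KO in Cy3 could thus be marked at lower readings than the controls in Cy5. The readings of the 4 samples lay close together. The other Pgr probe (A_52_P413840) read between 46.3 and 53.1, near background in every sample.

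Cd38, an enzyme that makes calcium-mobilizing nucleotides and is needed for the release of oxytocin from hypothalamic neurons, was higher in KO than in both controls with both of its probes. The brighter (A_52_P43549, NM_007646, chr5:43231735-43231794) read 4132 in KO and 3660 in WT, and 4243 in KO and 3681 in KO Tg. The 2 controls were alike and the 2 KO readings lay above them. Cd38 was 1.38-fold higher in KO than in WT (log2 ratio 0.46, spot error 0.21) and 1.43-fold higher than in KO Tg (0.52, spot error 0.21). The dimmer probe (A_52_P168962, chr5:43228152-43228528) read 91.9 in KO and 74.1 in WT, and 94.6 in KO and 83.3 in KO Tg, with log2 ratios of 0.20 and 0.30. The direction was the same with both probes.

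Cy3 held the KO genotype each time, and the difference between these 2 channels is given beside that between the Cy5 channels. Since it is not known whether both arrays received the same KO extract, the KO difference may hold no variation between animals. It was far larger for Phlda1 (350 and then 44.1) and Hba-a1 (2259 and then 35470) than for the member probes. For the 10 member probes well above background in both KO channels, the second array minus the first ran from -0.12 to 0.15 on the log2 scale. For the 9 member probes well above background in both Cy5 channels, KO Tg minus WT ran from -0.09 to 0.71, a wider range on the side of KO Tg. Over all probes, the robust SD was 0.14 for the KO difference (32931 probes) and 0.40 for KO Tg minus WT (30118 probes).

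KO Tg and WT differed by less than 2-fold for 7 of the 8 member genes measured in Cy5. Esr2 was the exception, at least 2.48-fold higher in KO Tg, where the shares of 22463 genes past 2-fold in KO Tg were 3.48% higher and 4.16% lower. KO Tg minus WT was 0.71 for Prlr, 0.63 for Esr1 and 0.62 for Avpr1a on the log2 scale. For the same probes the KO channels moved by 0.15, 0.00 and 0.05. Oxt (0.27) and Avp (0.16) were higher in KO Tg by smaller steps, Cd38 differed by -0.02, and Oxtr, near background in KO Tg, by -0.09. Of the 8 genes, 6 were higher and 2 lower in KO Tg than in WT. The median difference was 0.01 over all probes well above background in both Cy5 channels. Esr2 could be measured here only through KO Tg, and the 2 lower values lay within the range of the KO channels. The count is not read as a result about the members as a set.

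**Figure D4:**
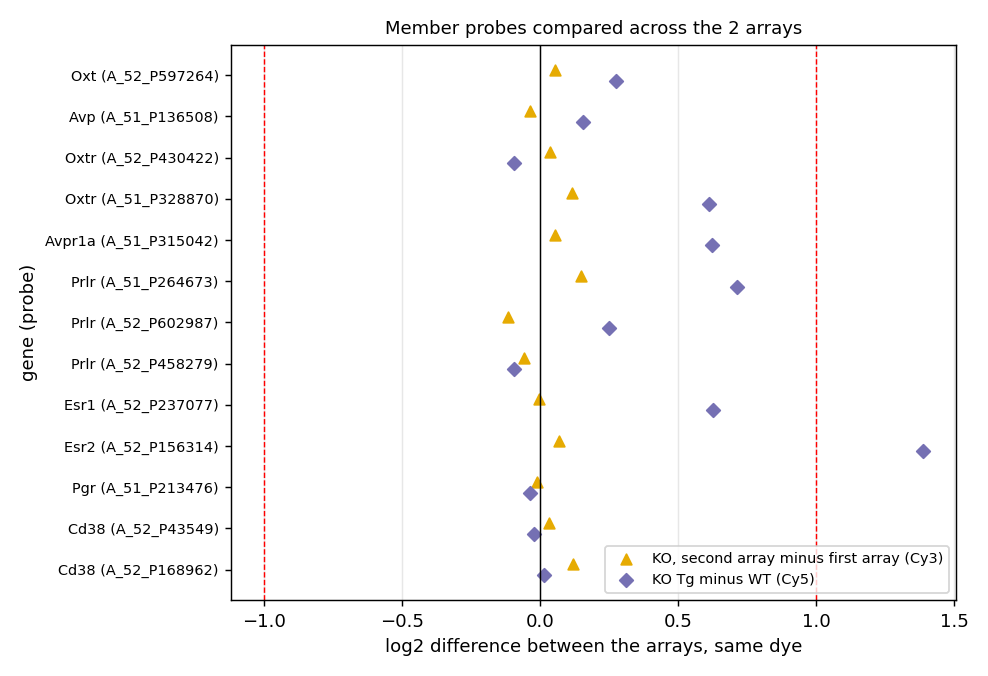
Log2 difference between the arrays in the same dye for the 13 member probes that stood above background in some channel. Triangles are KO on the second array minus KO on the first, diamonds are KO Tg minus WT, and dashed lines mark 2-fold. The triangles stay between -0.12 and 0.15, and the diamond of Esr2 lies at 1.39.

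Some anterior pituitary markers also read high in KO Tg, the sample in which Esr1 and Esr2 had their highest intensities. The brightest Prlr probe was highest there only before dye normalization, after which its log2 ratio of KO over KO Tg was 0.09. Of the 9 markers, 8 were well above background in each sample, and Pitx1 was near background in all 4. Their summed intensity, again without dye balance and weighted to the brightest probes, was 4552 in KO and 5873 in WT on the first array. On the second it was 4387 in KO and 12104 in KO Tg. Between KO Tg and WT, 3 of 8 markers were at least 2-fold higher in KO Tg (Prl, Gh and Pou1f1, named after their values were seen) and 1 was at least 2-fold lower (Tbx19). Prl, the hormone that binds Prlr, read 89.7 in KO and 80.2 in WT on the first array and 223 in KO and 5192 in KO Tg on the second. Gh, the growth hormone gene, read 75.5 in KO and 74.3 in WT, and 109 in KO and 1512 in KO Tg. The other 4 measured markers were within 2-fold, with KO Tg minus WT at 0.11 for Pomc, 0.18 for Cga, -0.06 for Tshb and -0.27 for Lhb on the log2 scale, and the median of the list was 0.15. The part of the pituitary genes in the Esr1, Esr2 and Prlr values was not tested.

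The other genes of these pathways were counted in 6 lists of 52 genes in all, every one of which had a probe and 49 of which were measured in each comparison. Against WT 2 were higher and 6 lower in KO by 2-fold or more, and against KO Tg again 2 and 6, beside the shares of all genes given above. Both comparisons share the KO genotype, so the equal counts are not independent of each other.

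Genes that process and release the posterior pituitary hormones stayed within 2-fold of WT. Of the 10, 0 were 2-fold apart from WT and 1 was lower against KO Tg, with medians of -0.11 and -0.28 on the log2 scale. That gene was Ryr3, a calcium release channel, named after its value was seen, which read 397 in KO and 539 in WT, and 362 in KO and 971 in KO Tg. Among the factors of hypothalamic neuroendocrine development, 1 of 5 measured was lower against WT and 2 of 5 against KO Tg (medians -0.57 and -0.73). Nkx2-1 (NM_009385), a transcription factor that patterns the ventral hypothalamus and forebrain, was lower in KO than in both controls. It read 336 in KO and 1005 in WT, and 342 in KO and 939 in KO Tg, a 2.62-fold and a 2.29-fold difference. The other was Arnt2, the partner of Sim1 in making oxytocin and vasopressin neurons, with a log2 ratio of -0.79 against WT and -1.54 against KO Tg, named after its values were seen.

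In the list of vasopressin and Gq receptor signalling, 1 of 9 measured genes was higher and 2 lower against WT, and 1 higher and 1 lower against KO Tg (medians -0.31 and -0.43). Plcb4 (NM_013829), a phospholipase C that Gq activates, was higher in KO than in both controls. It read 3112 in KO and 1240 in WT, and 3545 in KO and 1845 in KO Tg, a 2.91-fold and a 2.31-fold difference. Its relative Plcb1 was lower, with log2 ratios of -1.02 and -0.61, and so was the protein kinase C gene Prkca (-1.04 and -0.59), while Rgs2, an inhibitor of Gq, passed 2-fold against KO Tg (-0.56 and -1.03). These 3 were named after their values were seen. The kidney vasopressin receptor gene Avpr2 was near background in all 4 samples.

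The list of prolactin and its signalling held 0 genes 2-fold apart from WT and 1 lower against KO Tg, which was Prl itself, out of 8 (medians 0.04 and -0.14). Stat5a and Stat5b, the transcription factors downstream of Prlr, had log2 ratios of 0.69 and 0.78 against WT and 0.87 and 0.59 against KO Tg. Cish (-0.96 against WT and -0.37 against KO Tg) and Socs3 (-0.13 and -0.21) were lower in both comparisons. Jak2 (-0.36 and 0.10), Socs1 (0.02 and -0.67) and Socs2 (0.07 and -0.07) changed sign between them. All of these stayed within 2-fold. Of the gonadal steroid receptors, enzymes and coregulators, 1 of 10 was lower against WT and 0 were 2-fold apart from KO Tg (medians -0.11 and -0.10). That gene was Gper1, a membrane estrogen receptor named after its value was seen, with log2 ratios of -1.22 and -0.82. The aromatase gene Cyp19a1 differed by -0.23 and -0.24.

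Of the 7 maternal care genes known from mouse mutants, 1 was higher and 2 were lower against WT, and 1 was higher and 1 lower against KO Tg (medians -0.14 and -0.20). Dbh (NM_138942), the enzyme that makes noradrenaline, read 174 in KO and 66.7 in WT, and 207 in KO and 73.4 in KO Tg. Both controls were near background, and KO was at least 2.30-fold higher than WT and at least 2.64-fold higher than KO Tg. Since Dbh passed the filter on dim probes only through KO, this direction was set by the filter. Dbh is the gene counted as higher in this list in both comparisons. Those at least 2-fold lower, named after their values were seen, were Fosb and Npas3 against WT (-1.11 and -2.58) and Gal against KO Tg (-1.05). In the other comparison Fosb (-0.86) and Gal (-0.34) were also lower, but Npas3 was not (0.42). Npas3 read 106 in KO and 744 in WT, and 76.4 in KO and 57.1 in KO Tg, the last near background. Against KO Tg it passed the filter only through KO, so that direction was set by the filter. The imprinted gene Peg3 differed by -0.14 and -0.20, and Mest by 0.39 and 0.68.

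**Figure D5:**
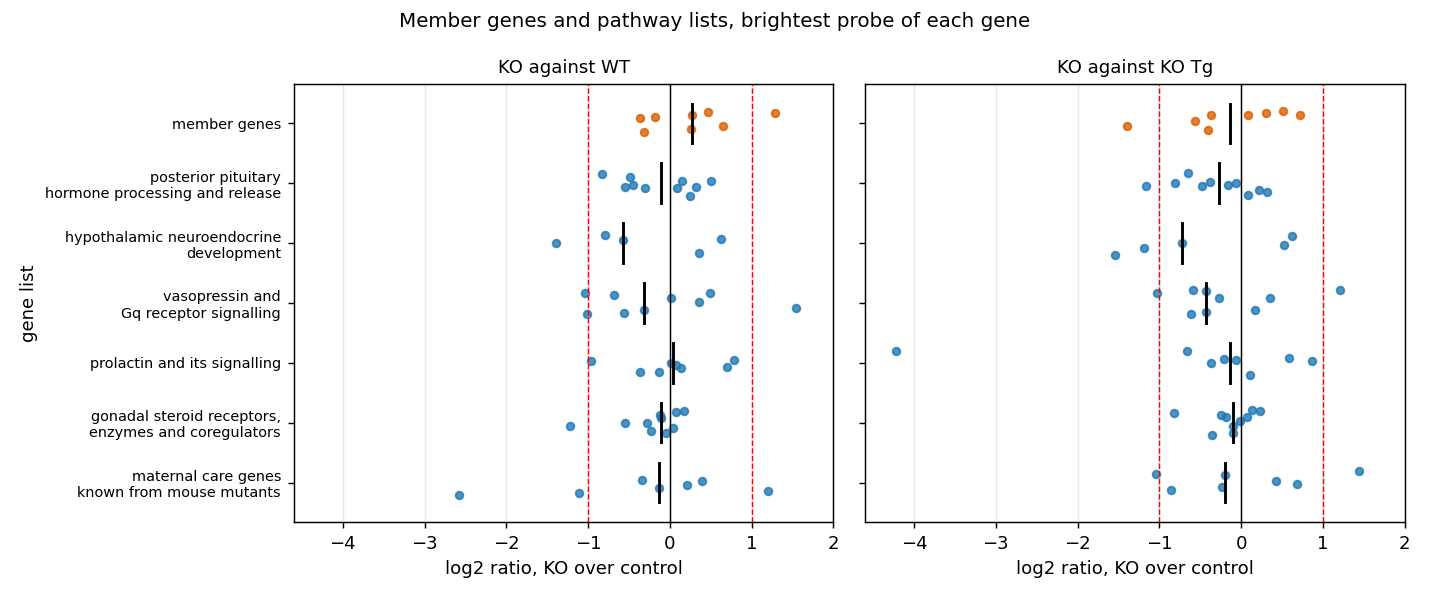
Log2 ratio of KO over the control for the measured member genes and the 6 pathway lists, against WT (left) and KO Tg (right). Each point is the brightest probe of a gene, black bars are list medians and dashed lines mark 2-fold. The member genes have medians of 0.27 and -0.14, and the point at the far left of the right panel is Prl (-4.23).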

How the data were processed

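The authors deposited the output of Agilent Feature Extraction 9.5.3.1 for each array, with the mean and median background intensity of each spot, marks for background, saturation and outliers (other columns), a log10 ratio of Cy5 over Cy3 and its error and p-value. A log2 ratio, KO in Cy3 over the control in Cy5, was deposited as well. Here, outlier spots were left out (375 and 300), and limma 3.58.1 (R 4.3.3, with the package data.table at version 1.17.8) was used for normexp correction with an offset of 50 and for loess within arrays, after which spots of a probe were averaged. Channels were scaled between arrays by Aquantile for KO Tg against WT. Python 3.11.15 with pandas 2.3.3, numpy 2.4.6, scipy 1.17.1 and matplotlib 3.10.9 served for tables and plots. The method was tested on simulated data.

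A probe was well above background where the scanner marked over 0.5 of its spots. With 1 channel near background or the brighter one saturated, a lower bound stands in for the fold, taken against the higher of the dim reading and the lowest reading above background in that channel. A call was 2-fold, the threshold of the study. The spot error is that of the scanner's ratio. Of 41174 probes, 32719 were matched to gene names of GRCm38.p6 (22951 by accession, 6659 by symbol, 3109 by synonym). The members and all lists (the 6 pathway lists and the markers of hypothalamus, anterior pituitary, cerebellum, striatum, cortex and hippocampus, neurons, astrocytes, oligodendrocytes, microglia and macrophages, blood, and uterus and placenta) were chosen with earlier results of these data known. The text names every member and probe, Phlda1, and up to 4 genes a pathway list that were 2-fold apart in one direction in both comparisons. Other pathway and marker genes are named outside this rule. Median intensities were 335 (KO), 360 (WT), 335 (KO) and 383 (KO Tg), over backgrounds of 39.0 to 44.0, and precision is limited by the number of arrays. With 1 array a comparison no test or error across animals was possible. Counts over the lists include genes whose own values are not reported here.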

Additional observations from a re-analysis of the deposited data

How the results depend on the processing

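Each value rests on 1 array and no dye swap, so dye and genotype cannot be told apart beyond what loess removes, and readings near background bound the fold of Oxtr, Avpr1b, Esr2 and Pgr. Of 9 alternatives, none turned the sign of 15 of the 16 measured member ratios; Prlr against KO Tg, 0.09, became -0.11 under median centring and -0.29 without normalization. Avpr1a against WT stayed past 2-fold in all 9 (log2 ratio 1.20 to 1.80), and Esr2 against KO Tg in all 8 that gave it a value (-3.74 to -1.37). Alternatives that change only the filter on dim probes could drop a value but not move it, so they are no check of sign or size for any member. The median of all probes moved only Prlr and Cd38, since the other members had 1 probe above background in the comparison. No spot of a measured member ratio was an outlier, so keeping outlier spots acted only through the normalization. With both channels required to be well above background, 0 members were at least 2-fold lower than in KO Tg. With the ratio of the scanner software or the deposited log2 ratio, 1 member, Oxtr, was at least 2-fold lower than in WT (-1.26 and -1.43). For the pathway genes, omission of normalization gave 10 lower against WT, and 1 higher and 12 lower against KO Tg. Offset 0, the ratio of the scanner software and the deposited log2 ratio each gave 4 higher against KO Tg. Both channels above background gave 1 higher in each comparison, since Dbh, with controls near background, then drops out. The cause of the other changes was not tested. No between-array scaling left 1 member higher and 0 lower in KO Tg than in WT. The slide as a block was not run, since both arrays lie on 1 slide, and leaving out an array leaves no value. No paired analysis was possible because each comparison has 1 array.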
